A study of Mus musculus with 4 samples.

Results

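Activin and GDF signaling was described in E10.5 mouse larynx through 10 genes, chosen by name as the ligands *Gdf10*, *Gdf11*, *Inhba* and *Inhbb*, the inhibin subunit *Inha*, the receptors *Acvr1*, *Acvr2a* and *Acvr2b*, and *Fst* and *Fstl1* of the follistatin group. All 10 were found among the 46983 genes of the deposited tables, each as 1 gene ID. Bulk poly(A) RNA-seq was made from 4 libraries, each a pool of vocal fold tissue from 3 larynxes at 32 to 35 somites. The 2 *Shh*-/- pools (1 and 2 in the sample titles) came from embryos with the *Shh*tm1amc null allele, kept on a Swiss Webster background, and the 2 WT pools (4 and 6) were Swiss Webster. The sample labels write the mutant genotype as Shh+/-, the name of the line, whereas the study's design text gives Shh-/-, which is used here. Every pool mixes epithelium, mesenchyme and other cells, and fewer cells of a type and less RNA per cell cannot be told apart in such RNA.

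Activins are dimers of inhibin β subunits, and pairing of a β subunit with the inhibin α subunit gives inhibin, which lacks activin activity and competes for its receptors. Activins and GDF11 bind the type II receptors ACVR2A and ACVR2B, which recruit a type I receptor, and the receptor pair then phosphorylates SMAD2 and SMAD3. ACVR1 is a type I receptor used mainly by BMPs. Follistatin binds activins and GDF11 outside the cell and blocks access to the receptors. The family is known for axial patterning, in which *Gdf11* acts on the *Hox* code, and for branching and cartilage formation in the airway, where *Fstl1* is required for the tracheal rings.

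None of the 7 genes abundant enough to test passed a limma adjusted p of 0.05 between *Shh*-/- and WT larynx, a threshold that 0.725% of all tested genes passed. The separations that stood out in the values were *Gdf11*, with a mean 1.86 times higher in the *Shh*-/- pools, *Gdf10*, 3.82 times higher but at about 1 TPM, and *Fst*, with a mean 2.24 times higher in WT at a similarly low level. *Inha*, by a small margin, and *Inhbb*, at under 1 TPM, were also higher in both *Shh*-/- pools. *Fstl1*, the most abundant of the genes, and the receptors had overlapping pools. Of all tested genes, 38.0% had both *Shh*-/- pools above both WT pools and 22.7% had both below. Values are TPM, a length-corrected transcript share with the same total in every library, and tests used limma on log2(TPM + 1) over the 16972 genes with a mean of at least 1 TPM.

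The libraries held 1.37 and 3.13 Gb of aligned sequence in *Shh*-/- pools 1 and 2 and 2.85 and 2.97 Gb in WT pools 4 and 6, as derived from the ratio of coverage to FPKM. The RNA integrity number was 8 and 7.7 in *Shh*-/- pools 1 and 2 and 7.7 and 9 in WT pools 4 and 6. Total RNA was 260 and 200 ng against 210 and 310 ng. *Ptch1*, a direct HH target, measured 12.9 and 13.8 TPM in *Shh*-/- larynx, against 57.8 and 55.1 TPM in WT (log2 difference −2.00, standard error 0.12, limma adjusted p = 0.0319). *Gli1*, another HH target, measured 3.20 and 8.45 TPM against 41.7 and 32.9 TPM, and transcripts of *Shh* itself 10.4 and 10.8 TPM against 23.7 and 42.1 TPM. The pools separated as labeled for all 3 genes, although *Gli1* (adjusted p = 0.0715) and *Shh* (adjusted p = 0.0895) missed the threshold in limma. A gene-level value does not tell whether the deleted part of *Shh* was read, so *Shh* itself checks the genotype only in part. The lowest and highest markers of foregut epithelium, *Foxa2* (5.34 to 39.8 TPM) and *Cldn6* (165 to 190.1 TPM), and of mesenchyme, *Meox1* (17.5 to 36.0 TPM) and *Col3a1* (309 to 359 TPM), were measured in every library.

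*Gdf11* and *Gdf10* are the ligands whose pools separated with reads in every library, and the 250 bases upstream of their RefSeq start sites (GRCm38.p6) are shown for that reason. The *Gdf11* stretch is chr10:128891719-128891968 on the minus strand and the *Gdf10* stretch chr14:33923337-33923586 on the plus strand, both 5′ to 3′, with matches to the letters TATAAA in capitals.
Gdf11: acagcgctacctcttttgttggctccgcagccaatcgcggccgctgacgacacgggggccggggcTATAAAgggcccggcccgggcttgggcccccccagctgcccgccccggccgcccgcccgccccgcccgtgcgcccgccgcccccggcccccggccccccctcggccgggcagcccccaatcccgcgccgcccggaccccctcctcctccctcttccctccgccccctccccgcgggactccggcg
Gdf10: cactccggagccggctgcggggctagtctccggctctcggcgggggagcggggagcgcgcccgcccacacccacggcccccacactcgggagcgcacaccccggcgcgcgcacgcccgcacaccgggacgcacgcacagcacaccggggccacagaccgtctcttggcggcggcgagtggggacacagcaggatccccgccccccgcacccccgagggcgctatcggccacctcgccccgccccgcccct
Both stretches were rich in G and C, at 81.2% for *Gdf11* and 78.8% for *Gdf10*, against a median of 52.4% over 32851 promoters. The stretches of *Acvr1* (85.6%) and *Acvr2a* (82%), whose pools overlapped, held more. That of *Inhba* held the least of the genes searched, at 43.2%. RefSeq promoters were matched for 9 of the 10 genes, all but *Fst*. For *Inha* and *Acvr1* the stretch lies inside the gene coordinates given below, and for *Fstl1* most of it does. These stretches are therefore upstream of the RefSeq start only. The 9 upstream stretches were searched on both strands for a GLI motif (GACCACCCA), a SMAD palindrome (GTCTAGAC), a SMAD box (CAGACA) and TATAAA. No stretch of these 9 held the GLI motif, the SMAD palindrome or the SMAD box, which occur in 0.225%, 0.167% and 17.1% of all promoters. TATAAA occurred in *Gdf11*, beginning 185 bases before the start site, and in *Inhba*, 91 bases before it, and in 12.4% of all promoters. These matches describe letters in a short window and are not binding sites.

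**Figure D1:**
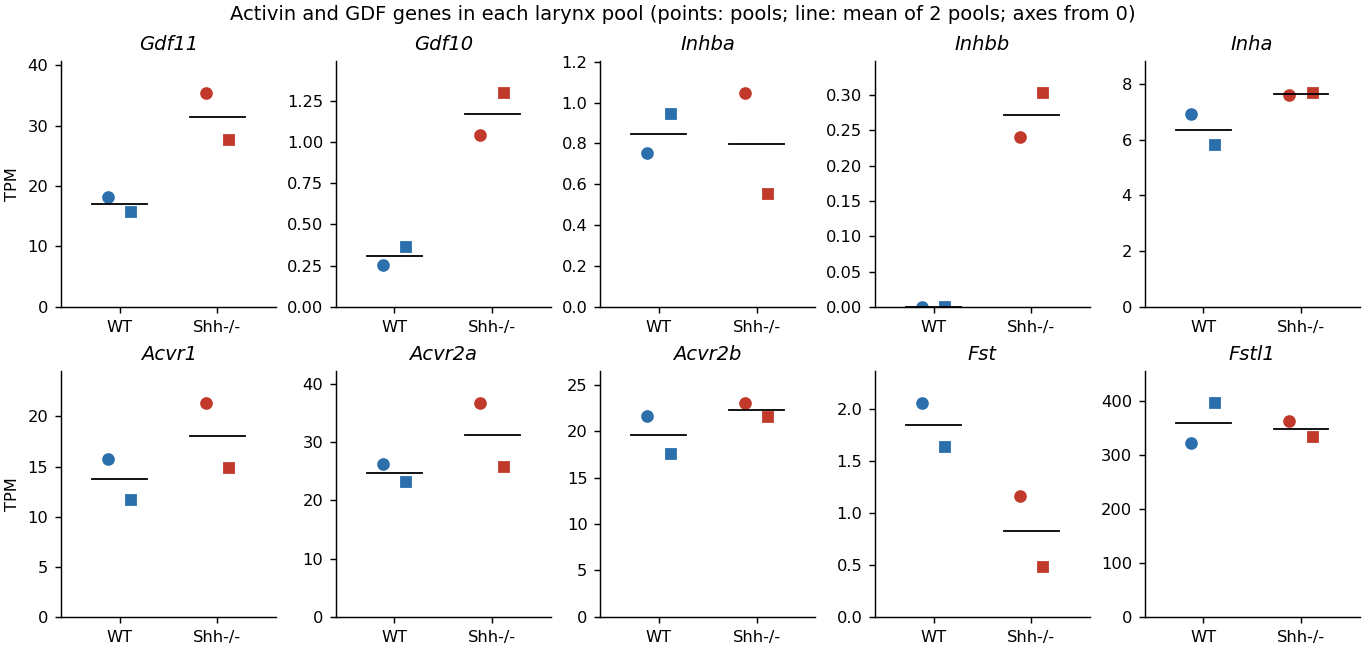
TPM of the 10 genes in each pool, with WT pools 4 (circle) and 6 (square) in blue and *Shh*-/- pools 1 (circle) and 2 (square) in red; the line is the mean of 2 pools and each vertical axis starts at 0. The *Gdf11*, *Gdf10*, *Inha* and *Inhbb* points do not overlap between genotypes and lie higher in *Shh*-/-. The *Fst* points lie lower, and the *Inhba*, receptor and *Fstl1* points overlap.

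Among the ligands, *Gdf11* (chromosome 10, 128882295 to 128891718 of mm10) reached 35.4 and 27.6 TPM in *Shh*-/- pools 1 and 2, compared with 18.1 and 15.8 TPM in WT pools 4 and 6. Both *Shh*-/- pools lay above both WT pools, and the lower of them was 1.52 times the higher WT pool. The group means were 31.5 ± 5.52 TPM for *Shh*-/- and, for WT, 17.0 ± 1.67 TPM (SD, n = 2 pools each). The log2 difference was 0.85 (standard error 0.17, 95% interval 0.40 to 1.29), with a limma p of 0.00455 before adjustment and 0.0975 after it. Coverage of this gene was 23.3 to 43.0 reads per base in the 4 libraries, the deepest of the 4 ligands. Its limma adjusted p ran from 0.0826 to 0.178 over the alternative settings. The log2 difference was 0.67 after correction for GC content and transcript length, and ran from 0.67 to 1.02 with 1 pool left out.

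*Gdf10*, which encodes a ligand related to BMP3, was at 1.04 and 1.30 TPM in *Shh*-/- larynx, against 0.252 and 0.361 TPM in WT. The lower *Shh*-/- pool was 2.89 times the higher WT pool. Its mean of 0.738 TPM over the libraries was below the minimum for testing. With no filter on low values, a fit in which 0 of 28524 genes passed an adjusted p of 0.05 (5011 had an unadjusted p under 0.05), its log2 difference was 0.73 (standard error 0.15, limma adjusted p = 0.178). Coverage was 0.685 and 2.02 reads per base in the *Shh*-/- pools and 0.358 and 0.536 in WT, so that these values rest on few reads. The gene (chromosome 14, 33923587 to 33935280) ends 2703 bases short of its end in GENCODE M21, and reads in that stretch are not part of its value.

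*Inhba*, which encodes the activin A subunit, overlapped between genotypes at 1.05 and 0.551 TPM in *Shh*-/- and 0.752 and 0.943 TPM in WT. The *Shh*-/- pools held both its highest and its lowest value. The file's model (chromosome 13, 16011851 to 16027211) ends 4410 bases before the GENCODE M21 end. *Inhbb*, which encodes the activin B subunit, was at 0.241 and 0.302 TPM in *Shh*-/- larynx but is listed at 0 in both WT pools. No fold is given for it, because an entry of 0 in these tables need not be an absence of reads, and its coverage stayed under 1 read per base in every library. Neither activin subunit reached the mean of 1 TPM, and with no filter limma gave adjusted p values of 0.909 for *Inhba* and 0.18 for *Inhbb*.

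*Inha*, the inhibin α subunit gene (chromosome 1, 75507077 to 75510366), was the more abundant inhibin subunit transcript in every library, at 7.59 and 7.67 TPM in *Shh*-/- and 6.92 and 5.80 TPM in WT. Both *Shh*-/- pools lay above both WT pools, but the nearest pools differed by only 1.10 times. The log2 difference was 0.23 (standard error 0.17, 95% interval −0.20 to 0.67, limma adjusted p = 0.419). After correction for GC content and transcript length the log2 difference was 0.010.

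The receptors were expressed at similar levels to one another. *Acvr2a* (chromosome 2, 48814109 to 48903269) measured 36.6 and 25.7 TPM in *Shh*-/- larynx, against 26.2 and 23.2 TPM in WT. Its value in *Shh*-/- pool 2 lay between the WT pools. *Acvr2b* (chromosome 9, 119402444 to 119433501) measured 23.0 and 21.5 TPM in *Shh*-/- and 21.7 and 17.5 TPM in WT. For *Acvr1* (chromosome 2, 58388644 to 58567157) the values were 21.3 and 14.9 TPM in *Shh*-/- and 15.8 and 11.7 TPM in WT. Each of these receptors had its highest value in *Shh*-/- pool 1 and its lowest in WT pool 6, and the groups overlapped for each receptor. *Gdf11* had its highest and lowest values in these same pools. *Shh*-/- pool 1 had the least aligned sequence and WT pool 6 the highest RNA integrity number, and their part in this order was not tested. The log2 differences were 0.31 for *Acvr2a* (95% interval −0.21 to 0.83), 0.18 for *Acvr2b* (−0.22 to 0.58) and 0.37 for *Acvr1* (−0.25 to 0.99). The limma adjusted p values were 0.38, 0.487 and 0.379 in the same order, and the intervals leave room for a change in either direction. After correction for GC content and length the estimate for *Acvr2b* was −0.031. *Orc4*, a replication gene on the opposite strand at 36.1 to 70.1 TPM, shares 446 bases with the 3′ end of *Acvr2a*, and reads there are assigned by strand only if the counting used it, which is not given in the sources used here.

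*Fst* (chromosome 13, 114452262 to 114458730), the gene of follistatin, was the only one of the 10 whose *Shh*-/- pools both lay below the WT pools. It measured 1.17 and 0.483 TPM in *Shh*-/- pools 1 and 2 and 2.06 and 1.63 TPM in WT. The lower WT pool was 1.40 times the higher *Shh*-/- pool, while the *Shh*-/- pools differed from each other by more than that. The means were 0.825 ± 0.483 TPM for *Shh*-/- and, for WT, 1.85 ± 0.302 TPM (SD, n = 2 pools each), so the gene passed the mean of 1 TPM through its WT pools. The log2 difference was −0.66 (standard error 0.28, 95% interval −1.39 to 0.065), with a limma adjusted p of 0.228. At a pseudocount of 0.1 the log2 difference was −1.17 (adjusted p = 0.252). Coverage was 0.768 and 0.752 reads per base in *Shh*-/- and 2.93 and 2.43 in WT, which makes this one of the less firmly measured differences.

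*Fstl1* (chromosome 16, 37776873 to 37836514), which encodes a secreted follistatin-like glycoprotein, measured 364 and 335 TPM in *Shh*-/- and 322 and 396 TPM in WT. Both *Shh*-/- values lay between the WT values. The log2 difference was −0.035 with a 95% interval from −0.37 to 0.30 (limma adjusted p = 0.884). *Fstl1* made up 74.1 to 83.8% of the summed TPM of the 10 genes in the 4 libraries. Its transcripts were far more abundant than those of *Fst* in both genotypes.

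Of the group, 7 of the 10 genes passed the filter and 5 of these had an estimate above 0. At a limma adjusted p under 0.05, 0 of the 7 were called, against 0.725% of all tested genes. At an adjusted p under 0.10, *Gdf11* alone was called, against 5.06% of all tested genes. *Gdf11* was also the 1 gene of 7 with an unadjusted p under 0.05 in the higher direction, which 17.5% of all tested genes reached, and 0 reached it in the lower direction, against 7.22%. Of the 7, *Gdf11* and *Inha* had both *Shh*-/- pools above both WT pools, as did 38.0% of all tested genes, and *Fst* had both below, as did 22.7%. The median log2 difference was 0.23 over the 7 and 0.083 over all tested genes. With 7 genes, counts of 2 and 1 lie near these background shares, and nothing particular to the genes as a group is read from them.

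**Figure D2:**
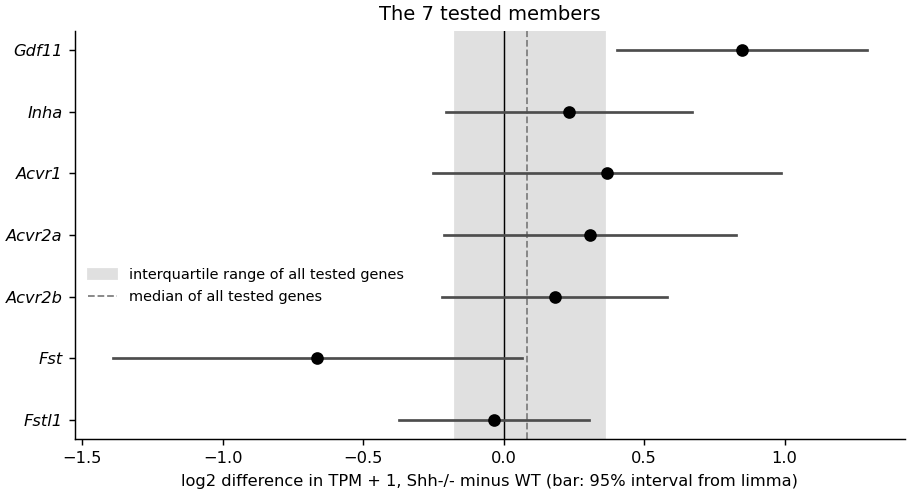
Log2 difference in TPM + 1 (*Shh*-/- minus WT) of the 7 tested genes, with 95% intervals from limma as bars; the grey band is the interquartile range of all 16972 tested genes and the dashed line their median, 0.083. The *Gdf11* interval, 0.40 to 1.29, lies above 0, and the intervals of the other 6 genes include 0.

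Ranked by TPM within each library, *Fstl1* ranked 1, *Acvr1* 5, *Inha* 6, *Inhba* 8 and *Inhbb* 10 in all 4. *Gdf11* ranked 4 in both WT pools, below *Acvr2a* and *Acvr2b*. In the *Shh*-/- pools it ranked 3 and 2, above *Acvr2b* in both, and above *Acvr2a* in pool 2 alone. *Gdf11* and *Acvr2a* therefore could not be ordered in *Shh*-/- larynx. *Fst* ranked 7 in both WT pools and 7 and 9 in the *Shh*-/- pools, where it exchanged places with *Gdf10* between the pools.

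A ratio of 2 genes within a library does not depend on how libraries are scaled to each other. *Gdf11* transcripts were 30.3 and 57.1 times as abundant as *Fst* transcripts in *Shh*-/- pools 1 and 2, and 8.81 and 9.66 times in WT. The mean log2 ratio differed by 2.17 between genotypes, beyond the SD of 0.65 in *Shh*-/- and 0.095 in WT. For *Inhba* over *Fst*, the ratio was 0.897 and 1.14 in *Shh*-/- and 0.365 and 0.577 in WT, so that *Fst* exceeded *Inhba* in both WT pools and the pair was near parity in *Shh*-/-. Both ratios separated the genotypes, and the two-sided exact permutation p was 0.333, the smallest that 2 pools against 2 allow, so no test of them can pass 0.05. The *Gdf11* to *Fst* ratio had to separate, since both genes did so in opposite directions, and it restates their levels. The ratio of *Acvr2a* to *Acvr2b* was 1.59 and 1.20 in *Shh*-/- and 1.21 and 1.32 in WT, and did not separate them (exact permutation p = 1). Because *Fst* is the denominator of both shifted ratios, its low coverage touches both, and they are not independent of each other. Ratios to *Inhbb* were not formed, since it is listed at 0 in WT.

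**Figure D3:**
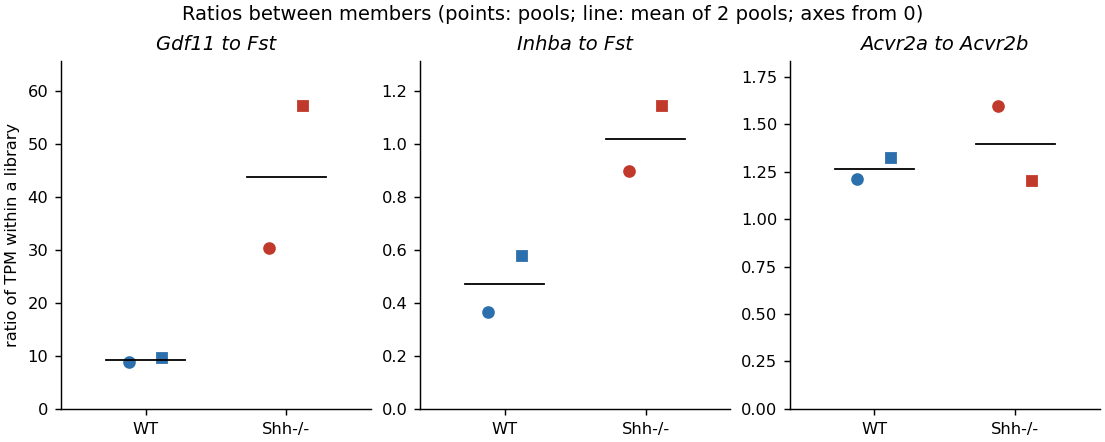
Ratio of TPM within each library for *Gdf11* to *Fst*, *Inhba* to *Fst* and *Acvr2a* to *Acvr2b*, by genotype; points are pools, the line is their arithmetic mean and each axis starts at 0. The first pair of ratios is higher in both *Shh*-/- pools, at 30.3 and 57.1 against 8.81 and 9.66 for *Gdf11* to *Fst*, and the receptor ratio overlaps.

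The rest of the pathway was examined with 43 further genes in 5 lists, of which 24 had a mean of at least 1 TPM. By limma, 0 of the 24 passed an adjusted p of 0.05 in either direction, and at an unadjusted p under 0.05, 4 were higher and 2 lower in *Shh*-/-, near the 17.5% and 7.22% of all tested genes. The median log2 difference of the 24 was 0.25, with 15 estimates above 0 and 9 below, and 58.3% of all tested genes had an estimate above 0.

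Only 2 of 10 other ligands reached the filter. Myostatin (*Mstn*), the closest relative of *Gdf11*, was at 0.842 and 0.677 TPM in *Shh*-/- and 1.18 and 2.46 TPM in WT (log2 difference −0.64, limma adjusted p = 0.259), and like *Fst* it passed the filter through its WT pools. *Gdf6*, a BMP-type ligand of joints and skull, was at 6.12 and 6.85 TPM in *Shh*-/- and 7.71 and 6.85 TPM in WT, and the groups overlapped (log2 difference −0.14, limma adjusted p = 0.608).

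Of the 8 other receptors and co-receptors, 5 were tested. The TGFβ co-receptor *Tgfbr3* was at 11.7 and 7.87 TPM in *Shh*-/- and 5.93 and 6.64 TPM in WT (log2 difference 0.54, limma adjusted p = 0.223). The BMP type II receptor *Bmpr2*, at 23.7 and 15.2 TPM against 23.0 and 27.5 TPM, overlapped (log2 difference −0.39, limma adjusted p = 0.36). The Nodal co-receptors *Tdgf1* and *Cfc1* were under 1 TPM in every library.

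Among 9 other extracellular inhibitors, 3 were tested. Of these, 1 had both *Shh*-/- pools above both WT pools, as had 38.0% of all tested genes, and 2 had both below, as had 22.7%. With 3 genes nothing particular to the list is read from these counts. *Fstl3*, a follistatin relative that also binds activin, was lower like *Fst*, at 1.91 and 2.01 TPM in *Shh*-/- and 3.41 and 3.48 TPM in WT (log2 difference −0.59, standard error 0.19, limma adjusted p = 0.16). *Wfikkn1*, a secreted inhibitor of GDF11 and myostatin, was at 6.72 and 6.92 TPM in *Shh*-/- and 4.67 and 3.20 TPM in WT (log2 difference 0.68, standard error 0.21, limma adjusted p = 0.157).

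All 5 tested ligand-processing proteases of 6 listed had an estimate above 0, as had 58.3% of all tested genes, and 4 had both *Shh*-/- pools above both WT pools, as had 38.0%. With 5 genes nothing particular to the list is read from these counts. The largest difference was in *Bmp1*, whose product cleaves the latent GDF11 and myostatin complexes, at 75.0 and 58.4 TPM in *Shh*-/- and 42.8 and 36.0 TPM in WT (log2 difference 0.74, standard error 0.17, limma adjusted p = 0.111). Its relative *Tll1* was at 2.41 and 2.87 TPM against 1.49 and 1.66 TPM (log2 difference 0.49, limma adjusted p = 0.222). The median of the list was 0.49, the highest of the 5 lists. Over the alternative settings the log2 difference of *Bmp1* ran from 0.43 to 0.75.

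Of 10 intracellular mediators and brakes, 9 were tested. *Smad7*, an inhibitory SMAD, was at 24.2 and 18.9 TPM in *Shh*-/- and 17.7 and 9.47 TPM in WT (log2 difference 0.68, standard error 0.31, limma adjusted p = 0.255). *Skil*, which encodes the SMAD repressor SNON, was at 37.0 and 34.2 TPM in *Shh*-/- and 46.8 and 60.5 TPM in WT (log2 difference −0.57, standard error 0.16, limma adjusted p = 0.138). The transducers *Smad2* (log2 difference −0.011), *Smad3* (0.19) and *Smad4* (0.28) had limma adjusted p values from 0.245 to 0.97.

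**Figure D4:**
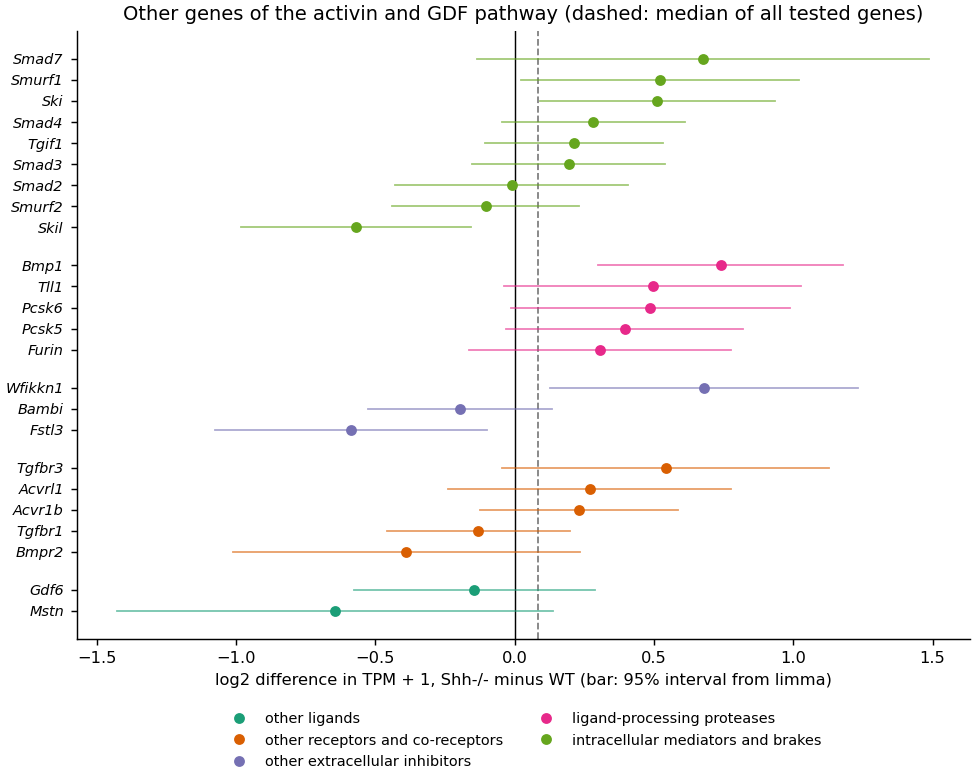
Log2 difference in TPM + 1 (*Shh*-/- minus WT) of the 24 tested genes in 5 further pathway lists, with 95% intervals from limma; colors mark the lists and the dashed line is the median of all tested genes, 0.083. Estimates of the ligand-processing proteases all lie above 0, with *Bmp1* at 0.74, and the lowest point is *Mstn* at −0.64, a gene that passed the filter through its WT pools.

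Markers of several cell types differed between the genotypes in the same libraries, with 3 neuron markers and 1 each of mesenchyme, neural crest and glia, endothelium and muscle past a limma adjusted p of 0.05. Of all tested genes, 0.725% passed that threshold. Over 8 neuron markers, the summed TPM was 432 and 457 in the *Shh*-/- pools and 188 and 185 in WT. Of the 8, 7 were higher in both *Shh*-/- pools, as were 38.0% of all tested genes, with *Isl1* the exception. The sums of 8 mesenchyme markers were 1201 and 1069 TPM against 762 and 781 TPM, and those of 7 neural crest and glia markers 170 and 157 TPM against 103 and 83.8 TPM. The sums of 6 endothelial markers were 287 and 328 TPM against 191 and 183 TPM, and those of 8 striated and cardiac muscle markers 159 and 237 TPM against 62.6 and 73.0 TPM. Among those muscle genes 7 were tested, and 5 of them were higher in both *Shh*-/- pools. The pools of *Myod1* and *Myog* overlapped. *Myh3* stayed under 1 TPM and was lower in both *Shh*-/- pools. The sums of 8 foregut epithelium markers overlapped, at 680 and 595 TPM against 618 and 622 TPM, but 3 of these markers were higher and 3 lower in both *Shh*-/- pools. Among all tested genes 38.0% were higher and 22.7% lower in this way. *Foxa2*, the lowest of the 8 epithelial markers, was at 5.34 and 9.12 TPM against 29.2 and 39.8 TPM (log2 difference −2.13, limma adjusted p = 0.0602). The sums of 6 erythroid markers overlapped. The part of these cell types in the values of *Gdf11*, *Gdf10*, *Fst* and *Bmp1* was not tested.

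The 5 genes whose pattern over the 4 libraries was most like that of *Gdf11*, by Euclidean distance of gene-centered log2(TPM + 1), were *Nfatc4*, *Enc1*, *Capn2*, *Adamts10* and *Spata13*, with distances from 0.0394 to 0.0606. *Enc1* was also close in level, at 34.4 and 27.3 TPM in *Shh*-/- and 17.9 and 16.0 TPM in WT.

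**Figure D5:**
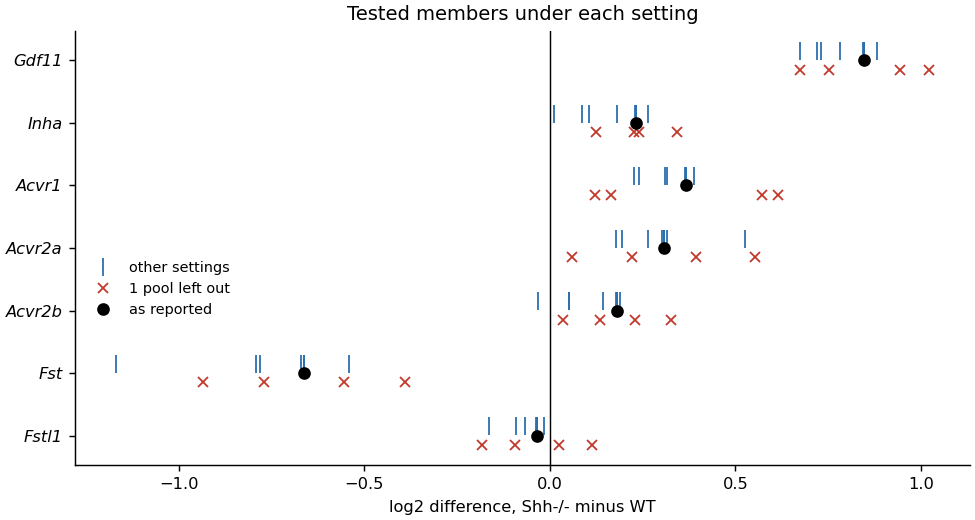
Log2 difference (*Shh*-/- minus WT) of the 7 tested genes as reported (circles), under the other settings (blue ticks) and with 1 pool left out (red crosses). *Gdf11* stayed between 0.67 and 1.02 and *Fst* between −1.17 and −0.39, whereas *Fstl1* and *Acvr2b* crossed 0.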

How the data were processed

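Poly(A) libraries were made with a directional kit from 4 pools of 3 larynxes and sequenced single-end. The authors aligned reads to mm10 with HISAT2 2.1.0 and built gene tables with StringTie 1.3.6, as named in the submitters' processing notes. The deposited tables give coverage (mean reads per base, not normalized), FPKM (the authors' scaling by length and aligned reads) and TPM (the authors' FPKM scaled to the same total in each library), and no counts. Counting intervals were therefore not computed, and for genes with several transcripts the deposited coverage was not proportional to FPKM. The annotation release was not given in the sources used here.

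TPM was summed per gene ID. The fit used limma 3.58.1 in R 4.3.3 (lmFit, eBayes with trend) on log2(TPM + 1), *Shh*-/- minus WT, no covariates, over 16972 genes with a mean of at least 1 TPM, with Benjamini-Hochberg adjustment and a threshold of 0.05. The scale understates changes of low genes. Replicates are pools, so p-values measure a spread between pools, which limma partly borrows from all tested genes. Gene IDs matched GENCODE M21 for 46488 of 46983, used for gene type, transcript length and GC content; coordinates are those of the tables. *Gdf1* was not analysed here, and 1 neural crest and glia marker is not reported here. The fit was tested on simulated data. Named genes were the 10 members, *Shh*, *Ptch1* and *Gli1*, the genes of each pathway list past the threshold or otherwise its 2 with the largest log2 difference, markers at the ends of their lists, and the 5 genes most like the member with the largest difference. *Smad2*, *Smad3*, *Smad4*, *Tdgf1*, *Cfc1*, *Isl1*, *Myod1*, *Myog* and *Orc4* were added after their values were seen. Members and lists were chosen with earlier results of these data known. Alternatives covered pseudocount, filters, quantile and median scaling, FPKM, haemoglobin, eBayes options, GC content and length (splines with 5 degrees of freedom), an adjusted p of 0.10 and each pool left out. A fit to protein-coding genes was added after the data were seen.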

Additional observations from a re-analysis of the deposited data

How the results depend on the processing

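No paired analysis was possible because the pool numbers in the labels (1 and 2 against 4 and 6) are not shared between genotypes. The count of the 10 genes past a limma adjusted p of 0.05 was 0 under every setting run except a threshold of 0.10, which gave 1 (*Gdf11*). This says little of stability, since over all genes 0 passed with no filter and without *Shh*-/- pool 1, *Shh*-/- pool 2 or WT pool 4, and 16 without WT pool 6, against 123 as reported. The filters, the eBayes options and the protein-coding fit leave an estimate unchanged, so part of the agreement in direction was fixed in advance. Of 103 alternative values of single genes, 100 kept their direction. The other 3 changed sign: *Acvr2b* went to -0.031 after correction for GC content and length, and *Fstl1* went to 0.026 without *Shh*-/- pool 2 and to 0.11 without WT pool 6 (range -0.18 to 0.11 with 1 pool left out). The number of the 10 genes with an unadjusted limma p under 0.05 went from 1 to 3 with no filter, which let in *Gdf10* and *Inhbb*, both at low coverage. It was 2 under quantile normalization, median centring, eBayes without trend and the GC and length correction. Over all genes it was 4202 of 16972 as reported, 5011 of 28524 with no filter and 4002 of 16972 under quantile normalization. Median centring gave 4024 of 16972, eBayes without trend 3897 of 16972, and the GC and length correction 3322 of 16887. The number with separate pools was 3 of 7 as reported, where 38.0% of all tested genes separated higher and 22.7% lower. With no filter it was 5 of 10, the added genes being *Gdf10* and *Inhbb*, both at low coverage. It was 2 under quantile normalization, median centring, FPKM and a minimum of 5 TPM. The share of all genes with separate pools was not computed under these other settings, so nothing is read from the change in count. A single pool separates from 2 others more readily, so counts with 1 pool left out are not compared here. The median log2 difference of the tested genes moved from 0.23 to 0.010 with the GC and length correction, 0.086 with quantile normalization and 0.10 with median centring, and was 0.12 without *Shh*-/- pool 1 or WT pool 6 and 0.34 without WT pool 4. Median centring shifted the median of all genes from 0.083 to -0.046, and *Gdf11* was then at 0.72. Of *Shh*, *Ptch1* and *Gli1*, 1 passed as reported, 3 at a threshold of 0.10 and 0 with no filter or with any pool left out, the settings in which 0 to 16 genes passed in all. With TPM + 1 in both terms, the log2 ratio difference was 1.51 in place of 2.17 for *Gdf11* to *Fst* and 0.61 in place of 1.14 for *Inhba* to *Fst*. For *Acvr2a* to *Acvr2b* it went from 0.13 to -0.078 without *Shh*-/- pool 1 and to 0.33 without *Shh*-/- pool 2. The low coverage of *Fst*, *Gdf10*, *Inhba* and *Inhbb* limits what can be said of them. *Fst* could not be fitted with FPKM or a minimum of 5 TPM, since it did not pass those filters. The causes of these moves were not tested.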

Other observations

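Outside the tested set, *Gdf5*, a ligand of joint and cartilage formation, was at 1.77 and 0.495 TPM in *Shh*-/- larynx, against 0.114 and 0.326 TPM in WT. *Foxh1*, a DNA-binding partner of SMAD2 and SMAD3 in Nodal and activin responses, was at 0.327 and 1.03 TPM in *Shh*-/- and 1.45 and 1.19 TPM in WT, with a mean just under 1 TPM. *Nodal* was between 0 and 0.218 TPM in the 4 libraries. These genes were chosen after their values were seen, all had fewer than 2 TPM in every library, and their differences were not tested in the fit reported.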
